A study of Mus musculus with 4 samples.

Results

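The Prss genes are mouse genes named for serine proteases. Here they are every one of the 28692 genes in the count matrix whose symbol is Prss, a number and optional small letters. That rule gave 40 genes, 1 of which, Prss23os, is named as the opposite-strand transcript of Prss23. The cells came from single-cell suspensions of testes of C57BL/6 mice at postnatal day 63, profiled as droplet 3' RNA libraries. Of 4 samples, 2 were Phf7 f/f, with loxP-flanked alleles of the chromatin reader gene Phf7, and 2 were Phf7 tKO, that is Stra8-Cre:Phf7 f/f, in which the Stra8 promoter drives Cre recombinase in germ cells, so that all animals carried the floxed allele. The matrix marks its 4 libraries only by a barcode suffix from 1 to 4 and nothing ties a suffix to a genotype. The genotypes were therefore not compared, and values are given for the pooled libraries and for each suffix, with no test.

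Trypsin-like serine proteases cut proteins with a catalytic triad of histidine, aspartate and serine, and many are made as inactive precursors. In the testis they are best known from sperm: acrosin and its relatives sit in the acrosome, the secretory vesicle over the sperm nucleus, and several membrane-anchored members are needed for sperm to pass into the oviduct. Male germ cells pass from spermatogonia through meiotic spermatocytes to round and then elongating spermatids, where protamines replace histones.

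The 4 libraries held 190744950 UMI (unique molecular identifiers, each counting 1 captured RNA) in 32273 barcodes, with 44447735 to 50353091 UMI per suffix, and 29967 cells were kept. Barcode sequences shared between suffixes numbered 497 over all barcodes and 425 among kept cells, and 852 kept cells carried one of these 425. Phf7 itself ranged from 185 to 1194 CPM (counts per 1000000 UMI) in pachytene spermatocyte-like cells, low in suffixes 1 and 4 and high in suffixes 2 and 3. Clusters were named by marker genes, with members and listed genes kept out of the clustering: 789 spermatogonia-like, 357 early spermatocyte-like, 3013 pachytene spermatocyte-like cells, 7101 cells of the round spermatid-like class and 9204 of the elongating class. Somatic classes were Sertoli-like (1377 cells), Leydig-like (675), interstitial mesenchymal-like (423), macrophage-like (129) and endothelial-like (44). A further 6855 cells (22.9%) stayed unnamed, and no cluster was named for dividing spermatocytes.

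Promoter sequences are shown first for 3 pairs of members on which the stage pattern turns: Prss39 and Prss40, neighbours with like profiles; Prss37 and Prss58, both highest in the same cluster; and Prss46 and Prss50, neighbours at different stages. Each runs 5′ to 3′ from 250 bases before to 50 after the start, from RefSeq on GRCm38.p6, and 15 of the germ cell members had an entry. In Prss39 (chr1:34498162-34498461, plus strand) and Prss40 (chr1:34560894-34561193, minus strand), capitals mark the 6 runs of at least 8 bases that are identical in a global alignment.
Prss39: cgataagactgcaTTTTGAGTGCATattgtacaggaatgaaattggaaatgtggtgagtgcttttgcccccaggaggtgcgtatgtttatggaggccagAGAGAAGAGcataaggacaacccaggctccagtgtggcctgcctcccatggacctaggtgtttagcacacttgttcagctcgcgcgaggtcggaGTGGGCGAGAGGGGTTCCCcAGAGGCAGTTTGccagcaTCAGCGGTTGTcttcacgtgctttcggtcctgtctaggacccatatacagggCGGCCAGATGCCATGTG
Prss40: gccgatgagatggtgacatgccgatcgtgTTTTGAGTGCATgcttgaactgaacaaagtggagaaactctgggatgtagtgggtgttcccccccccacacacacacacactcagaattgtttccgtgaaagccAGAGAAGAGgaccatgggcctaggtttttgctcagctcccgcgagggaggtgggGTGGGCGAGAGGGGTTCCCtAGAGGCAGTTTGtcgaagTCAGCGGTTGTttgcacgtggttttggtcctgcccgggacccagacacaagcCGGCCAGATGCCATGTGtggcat
The alignment matched 200 bases, and the longest identical run had 19. Over the 105 pairs among the 15 members the median was 159 matched bases, and the next best pair, Prss45 and Prss36, had 175.

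In the other 4 promoters, capitals mark CG dinucleotides. Prss37 (chr6:40519459-40519758, minus strand) and Prss58 (chr6:40900338-40900637, minus strand) had 1 and 0.
Prss37: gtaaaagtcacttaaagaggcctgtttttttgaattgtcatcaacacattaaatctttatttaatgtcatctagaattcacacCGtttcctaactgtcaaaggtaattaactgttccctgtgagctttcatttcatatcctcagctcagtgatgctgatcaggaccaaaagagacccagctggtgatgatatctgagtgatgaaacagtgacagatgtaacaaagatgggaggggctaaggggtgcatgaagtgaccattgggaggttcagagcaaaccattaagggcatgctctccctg
Prss58: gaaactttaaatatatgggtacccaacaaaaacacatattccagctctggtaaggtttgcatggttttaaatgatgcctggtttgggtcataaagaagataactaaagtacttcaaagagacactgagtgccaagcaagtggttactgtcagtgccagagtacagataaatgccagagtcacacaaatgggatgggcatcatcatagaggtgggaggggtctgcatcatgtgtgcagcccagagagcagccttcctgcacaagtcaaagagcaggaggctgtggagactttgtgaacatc
Prss46 (chr9:110844256-110844555, plus strand) and Prss50 (chr9:110857714-110858013, plus strand) had 9 and 21.
Prss46: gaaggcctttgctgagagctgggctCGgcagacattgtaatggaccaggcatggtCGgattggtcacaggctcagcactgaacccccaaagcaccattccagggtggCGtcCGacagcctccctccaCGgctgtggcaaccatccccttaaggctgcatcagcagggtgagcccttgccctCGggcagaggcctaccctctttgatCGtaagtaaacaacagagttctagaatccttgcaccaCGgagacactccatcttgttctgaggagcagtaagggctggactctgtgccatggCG
Prss50: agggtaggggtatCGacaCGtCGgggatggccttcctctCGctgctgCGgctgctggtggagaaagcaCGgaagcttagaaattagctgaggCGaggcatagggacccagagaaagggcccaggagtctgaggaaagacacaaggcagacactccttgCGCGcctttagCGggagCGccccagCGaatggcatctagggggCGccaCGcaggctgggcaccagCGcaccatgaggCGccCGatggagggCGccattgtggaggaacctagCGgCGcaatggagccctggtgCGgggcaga
The median over all 32851 promoters was 7, and 14.1% of them held as few as Prss37. Motifs were looked for on both strands, 13 in all, chosen with these data in view. TGACGTCA (1.79% of all promoters), TGACGT (7.51%), CAGTTG (13.7%), TATAAA (13.6%), ACTACAA (3.24%) and TGCGCA (7.76%) were in none of the 15 germ cell members. CANNTG was in 12 (72.3% of all promoters), AACNG in 13 (80.3%), CCAAT in 8 (37.4%), GGGCGG in 5 (35.7%), GTTGCC in 3 (12.5%) and TGACG, which TGACGT and TGACGTCA contain, in 1 (20.8%). CACGTG, a form of CANNTG, was in 5 (Prss38, Prss39, Prss40, Prss42 and Prss45) against 7.15% of all promoters. It was the last motif tried and was taken from reading the Prss39 and Prss40 sequences, so its count is a description of a motif picked out of 13 and supports nothing.

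Most of the family that was detected was germ cell RNA. Of the 40 members, 26 had at least 50 UMI in kept cells, and 22 of these (84.6%) were highest in a germ class, with at least 2 times the UMI per cell of every somatic class of 50 or more cells. By the same rule 61.8% of 16647 genes were germ cell genes. Prss35 and Prss23 were somatic, and Prss53 and Prss12 met neither rule. The family made up 0.213% of all UMI. Prss39 alone gave 27.0% of the family's UMI in kept cells, and Prss39, Prss58 and Prss37 together 49.5%. Of the 22, 1 was highest in spermatogonia-like, 2 in early spermatocyte-like, 9 in pachytene spermatocyte-like cells, 4 in the round class and 6 in the elongating class. Among all germ cell genes the shares were 19.5%, 15.7%, 24.7%, 28.2% and 11.9%. By single cluster, 5 of the 6 members of the elongating class were highest in a round spermatid-like cluster. These were Prss39, Prss58, Prss55 and Prss51 (cluster 12) and Prss23os (cluster 9). The class was the same in all 4 suffixes for 21 of the 22, Prss38 being the exception.

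**Figure D1:**
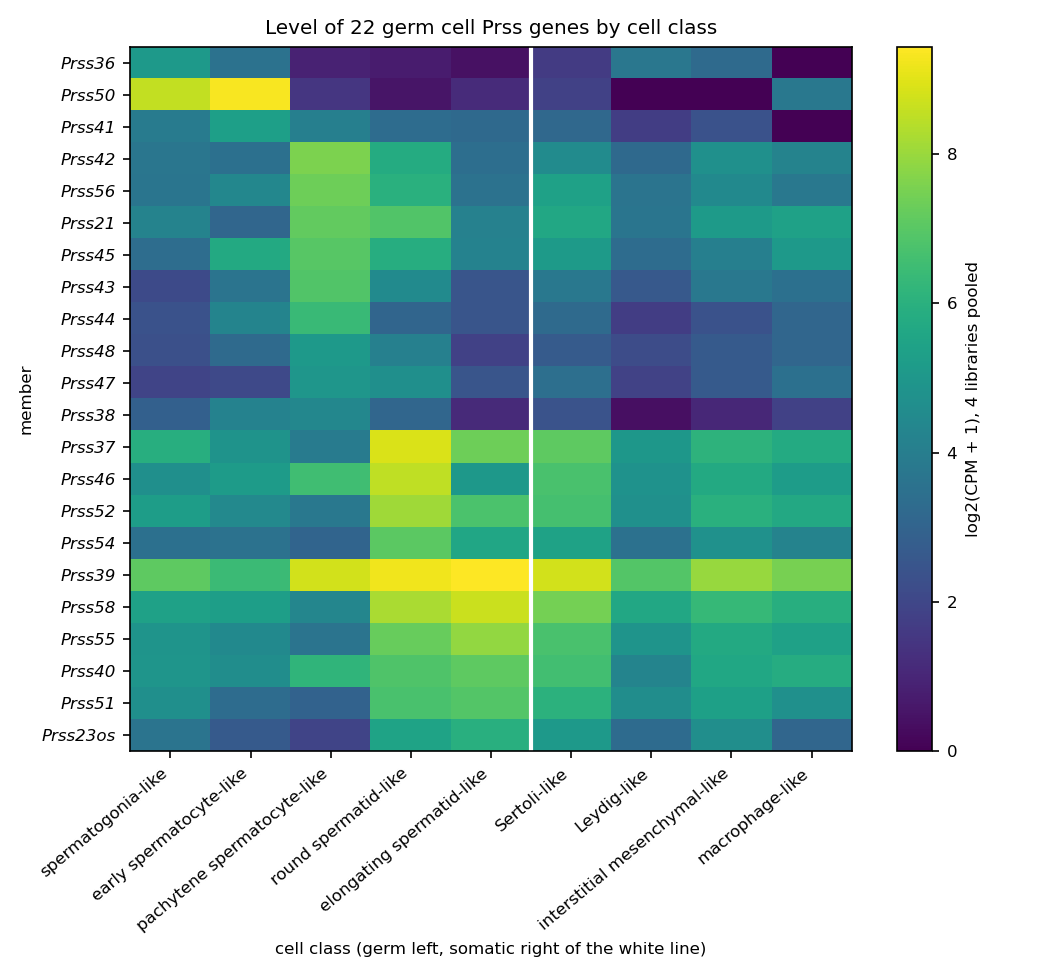
Level of the 22 germ cell members (rows) in the germ classes and in somatic classes of 50 or more cells (columns), as log2(CPM + 1) over the pooled libraries. Prss50 stands at the left, a block from Prss42 to Prss38 in pachytene spermatocyte-like cells, and the members from Prss37 down in spermatids, with a fainter copy of the spermatid members in Sertoli-like cells.

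RNA of abundant spermatid members was also counted in somatic barcodes. Prss39 stood at 437 CPM in Sertoli-like cells, which are shallow (median 1148 UMI), and at 690 CPM in elongating spermatid-like cells (median 6209 UMI). Per cell the values were 0.741 and 5.64 UMI. Elongating spermatid-like against Sertoli-like cells, Prss40 was at 136 against 93.9 CPM, Prss51 at 120 against 66.4 CPM and Prss23os at 61.3 against 33.4 CPM. In CPM these members and Prss39 thus missed the margin of 2 times that they met in UMI per cell. Over the whole family, Sertoli-like cells had 1504 CPM and Leydig-like cells 475 CPM. The part of free RNA or of doublets in these somatic values was not tested, and levels of a member under 2 times its highest somatic UMI per cell are not read as expression.

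Prss50, also known as testis-specific protease-like protein, in which threonine stands in place of the catalytic serine, was highest around the start of meiosis. Its level in early spermatocyte-like cells was 630, 559, 644 and 742 CPM in suffixes 1 to 4, and in spermatogonia-like cells 382, 381, 399 and 369 CPM. All 4 suffixes were higher in early spermatocyte-like cells, and the ranges did not overlap. The spermatogonia-like level came almost wholly from 1 of the class's 2 clusters. Cluster 14, with 730 cells, Stra8 as its leading gene and close scores for spermatogonia (1.62) and early spermatocyte (1.53) markers, held 1373 Prss50 UMI, or 438 CPM. Cluster 27, with 59 cells and scores of 2.57 and 0.68, held 5 UMI, or 10.7 CPM. In pachytene spermatocyte-like cells it was 1.55, 1.55, 2.26 and 1.75 CPM, a log2 ratio of -8.49 over early spermatocyte-like cells (95% interval -8.88 to -8.12). This interval, like the others given, covers counting error only. Leydig-like and interstitial mesenchymal-like cells held no Prss50 UMI. Sertoli-like cells held 6 UMI (2.57 CPM), and macrophage-like cells 5 UMI (12.7 CPM), all in suffix 1.

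Prss36, a secreted protein with several protease domains, was highest in spermatogonia-like cells, at 34.8, 37.7, 35.2 and 25.7 CPM in spermatogonia-like cells. It was at 10.8 CPM in early spermatocyte-like cells, while Leydig-like cells had 12.3 CPM. Prss41, a membrane-anchored member, was highest in early spermatocyte-like cells at 37.9, 53.0, 26.1 and 41.1 CPM, with 14.2 CPM in spermatogonia-like and 15.6 CPM in pachytene spermatocyte-like cells. Its lowest suffix there was above the highest of either neighbour. Between spermatogonia-like and early spermatocyte-like cells, a member was called when the pooled CPM differed by at least 2-fold in the same direction in all 4 suffixes, with at least 50 UMI. By this rule 3 of 18 members were higher (Prss45, Prss38 and Prss41), against 11.6% of 9111 genes, and 5 were lower, against 22.9%. The 5 were Prss36 and 4 members of later classes (Prss37, Prss23os, Prss51 and Prss21), whose UMI per cell was under 2 times the highest somatic value in both classes compared. The 5 became 3 without suffix 1 and 2 without suffix 3.

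The largest group was highest in pachytene spermatocyte-like cells. Of 22 members tested, 11 were higher there than in early spermatocyte-like cells, against 22.5% of 11408 genes, and 3 were lower (Prss50, Prss36 and Prss41), against 28.0%. Without suffix 3 the number lower was 6, and under other clusterings of the cells it was 7 to 9. The median log2 ratio was 0.73 over the members and -0.25 over all genes. Prss42 and Prss43, membrane-anchored or secreted proteases of meiotic germ cells, and Prss21, the glycolipid-anchored testisin, were among the 11.

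Prss42 measured 148, 202, 199 and 191 CPM in pachytene spermatocyte-like cells of suffixes 1 to 4, and 14.5, 9.63, 4.02 and 12.8 CPM in early spermatocyte-like cells. The ranges did not overlap, and the log2 ratio was 4.19 (3.55 to 4.92). Prss21 measured 110, 164, 151 and 138 CPM against 3.61, 12.0, 8.05 and 7.70 CPM, a log2 ratio of 4.24 (3.49 to 5.11). Prss21 remained at 115 CPM in round spermatid-like cells, while Prss42 was at 54.2 CPM there. Prss44, another meiotic member, dropped most sharply after pachytene, from 83.3 to 7.38 CPM, a log2 ratio of -3.50. Prss45 was at 9.44 CPM in spermatogonia-like, 51.7 CPM in early spermatocyte-like and 125 CPM in pachytene spermatocyte-like cells. Prss56, known from eye growth, measured 131, 191, 156 and 158 CPM in pachytene spermatocyte-like cells. Prss48, Prss47 and Prss38 were weaker, at 33.4, 29.8 and 19.6 CPM.

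Within the class, levels were uneven between clusters. Cluster 16, with 692 cells and led by genes that include the endoplasmic reticulum chaperones Hsp90b1, Hspa5 and Pdia6, held the highest germ cluster level of Prss42 (605 CPM), Prss21 (374 CPM), Prss43 (252 CPM), Prss56 (235 CPM) and Prss44 (143 CPM). The median depth of cluster 16 was 4154 UMI. In cluster 20 (median 30858 UMI) the same genes were at 58.5, 21.3, 83.1, 85.5 and 84.6 CPM. In cluster 24 (median 34805 UMI) they were at 199.8, 184, 113, 213 and 74.6 CPM. Values of the class's largest cluster, cluster 5 (1589 cells, median 1421 UMI), are not given here. The part of depth in these differences was not tested.

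**Figure D2:**
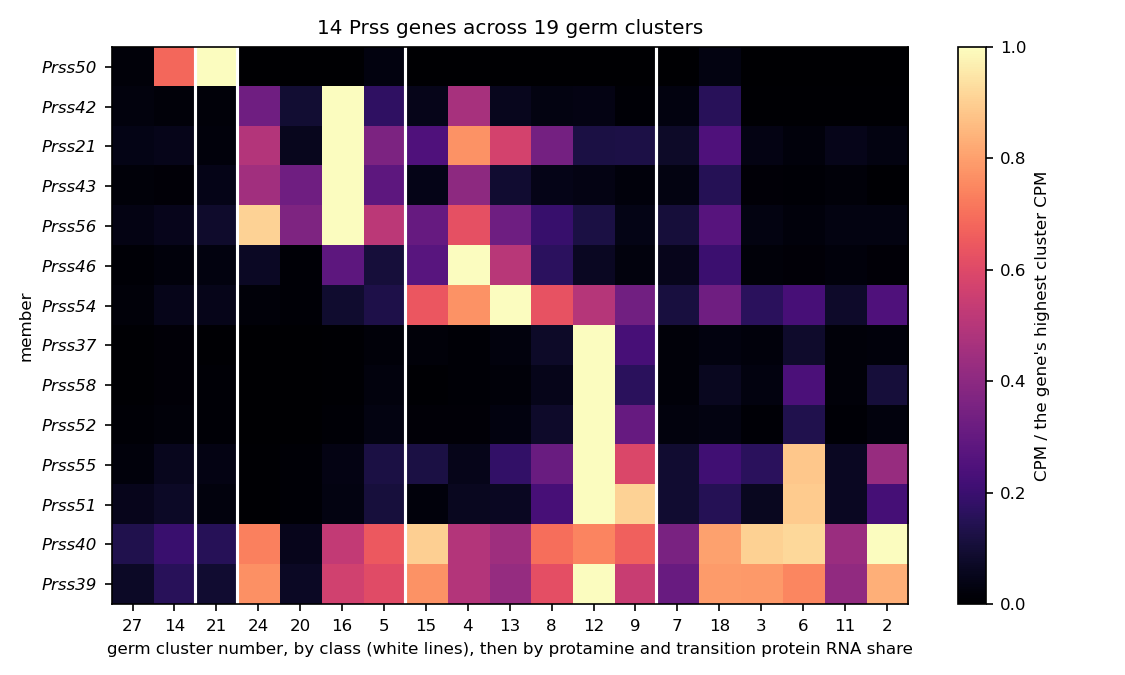
CPM of 14 members in 19 germ clusters, each row divided by its highest cluster. Columns run by class, separated by white lines, and within a class by the share of transition protein and protamine RNA. Prss50 fills clusters 14 and 21, Prss42 to Prss56 cluster 16, Prss46 cluster 4 and Prss37 to Prss51 cluster 12, while Prss39 and Prss40 are spread over many clusters.

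From pachytene spermatocyte-like to round spermatid-like cells, members were higher and lower in shares near those of all genes. Of 24 members tested, 10 (41.7%) were higher in round spermatid-like cells, against 33.9% of 14056 genes. Another 8 (33.3%) were lower, against 35.3%. Prss23 and Prss53, among the 10, and Prss50, among the 8, did not reach 2 times their highest somatic UMI per cell in either class; Prss53 came closest, at 1.91 times. Prss37, which lacks the catalytic triad and is needed for maturation of the sperm surface protein ADAM3, measured 512, 410, 456 and 510 CPM in round spermatid-like cells against 13.3, 13.9, 14.5 and 15.6 CPM in pachytene spermatocyte-like cells. The log2 ratio was 5.05 (4.92 to 5.18), with all suffixes apart. Prss52 had a log2 ratio of 4.43 and reached 286, 238, 253 and 300 CPM. Prss54 reached 130, 142, 133 and 126 CPM, with a log2 ratio of 4.22.

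Prss46 bridged the stages. It was at 92.1 CPM in pachytene spermatocyte-like cells and at 336, 392, 408 and 350 CPM in round spermatid-like cells, a log2 ratio of 2.00 (1.95 to 2.06). In elongating spermatid-like cells it was at 31.7 CPM. Its highest germ cluster was cluster 4, at 1216 CPM over 1701 cells. That cluster had close scores for round spermatid (1.10) and dividing spermatocyte (0.942) markers. Its median share of mitochondrial UMI was 3.01%, against 0.0662% over the round spermatid-like class.

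Cluster 12, of 936 round spermatid-like cells with a median of 1613 UMI, held the highest level of 6 members. Prss37 stood at 4435 CPM, Prss58 at 3602 CPM and Prss52 at 2142 CPM. Prss39 followed at 924 CPM, Prss55 at 548 CPM and Prss51 at 353 CPM. The next germ cluster for Prss37 was cluster 9, at 1019 CPM. Cluster 12 drew 234, 200, 194 and 308 cells from suffixes 1 to 4.

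Few members, as few of all genes, were higher in elongating spermatid-like than in round spermatid-like cells. Of 24 tested, 1 (4.17%) was higher, against 5.6% of 13639 genes, and 14 (58.3%) were lower, against 68.0%. The median log2 ratio was -1.53 over the members and -1.78 over all genes. Leaving Tnp1, Tnp2, Prm1 and Prm2 out of the totals moved the median of all genes to -1.57, and shifts the ratio of every other gene, members included, by the same amount. The 1 higher member was Prss50, from 0.434 to 1.26 CPM, both under its level of 2.57 CPM in Sertoli-like cells. Prss39, an acrosomal protease, measured 668, 696, 692 and 701 CPM in elongating spermatid-like cells and 594, 582, 616 and 624 CPM in round spermatid-like cells. The suffixes did not overlap, but the difference was below 2-fold. Its neighbour Prss40, likewise acrosomal, measured 138, 130, 139 and 136 CPM against 121, 112, 116 and 107 CPM. Prss58, Prss55, Prss51 and Prss23os were also highest in the elongating class, although Prss58, Prss55 and Prss51 were highest in the round class when each cell's CPM was averaged. Prss55, a glycolipid-anchored protease needed for sperm migration, measured 245, 243, 239 and 232 CPM against 159, 146, 136 and 163 CPM.

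**Figure D3:**
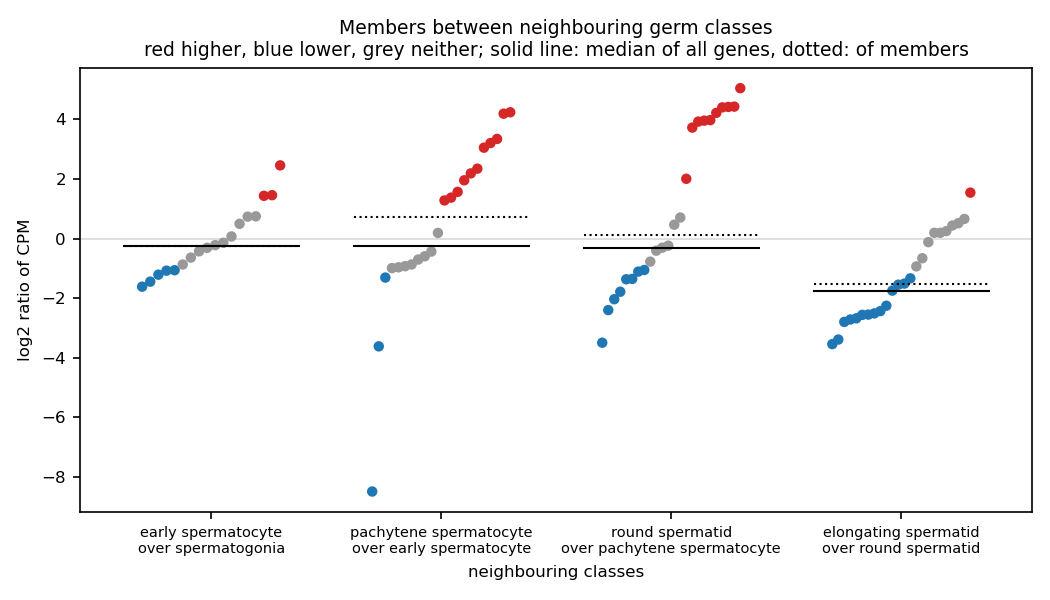
log2 ratio of CPM for each member tested between neighbouring germ classes (points; red called higher, blue called lower, grey neither), with the median of all genes as a solid and that of the members as a dotted line. The members' median lies above that of all genes for pachytene over early spermatocyte (0.73 against -0.25), and most members are below 0 for elongating over round spermatids.

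**Figure D4:**
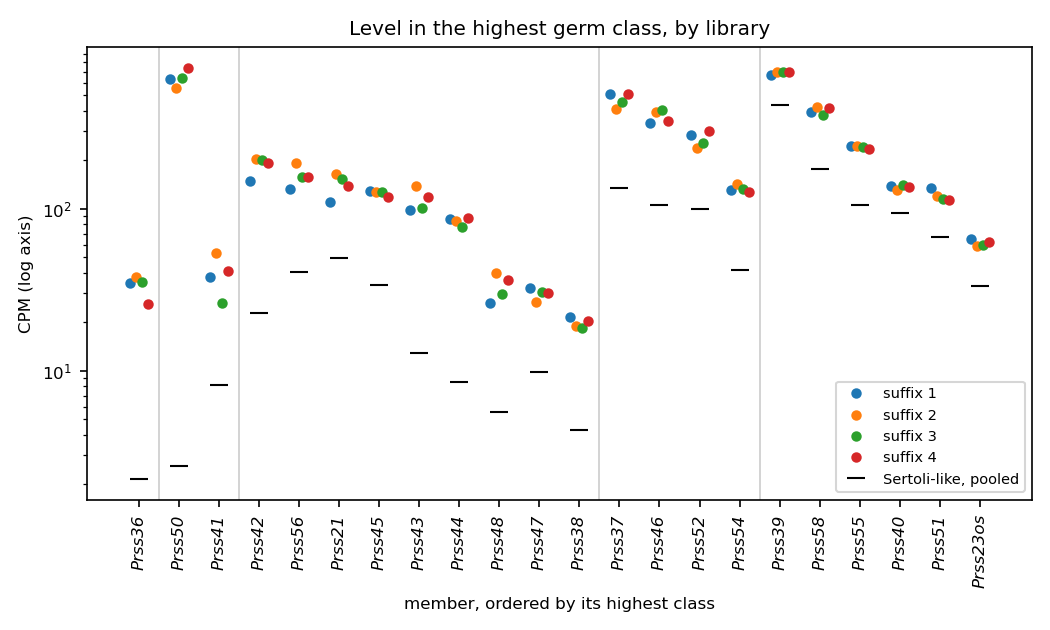
CPM (log axis) of each of the 22 germ cell members in its highest class, 1 point per suffix, with the pooled Sertoli-like level as a bar. Points of a member lie close together, and Prss39 and Prss40 sit nearest to their Sertoli-like bar.

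Spermatids were also grouped by the share of their UMI from Tnp1, Tnp2, Prm1 and Prm2. Cells of the elongating class made up 10.9% of the range below 2%, 28.8% at 2 to 5% and 35.6% at 5 to 10%. At 10 to 20% they made up 97.0%. The lower ranges thus mix both classes and are not stages. Prss46 was highest below 2% (517 CPM) and stood at 140 CPM at 2 to 5% and 54.1 CPM at 5 to 10%. Prss37 went from 74.3 CPM below 2% to 1096 CPM at 2 to 5%, 948 CPM at 5 to 10% and 205 CPM at 10 to 20%. Prss58 had its highest value in the same range, at 708 CPM, with 441 CPM at 10 to 20%. Prss55 and Prss51 were highest at 5 to 10%, at 315 and 295 CPM, in all 4 suffixes. Prss39 lay between 538 and 772 CPM over the ranges, and between 582 and 979 CPM with these 4 genes left out of the totals. The range of 20 to 30% held 456 cells, 342 of them from suffix 1.

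**Figure D5:**
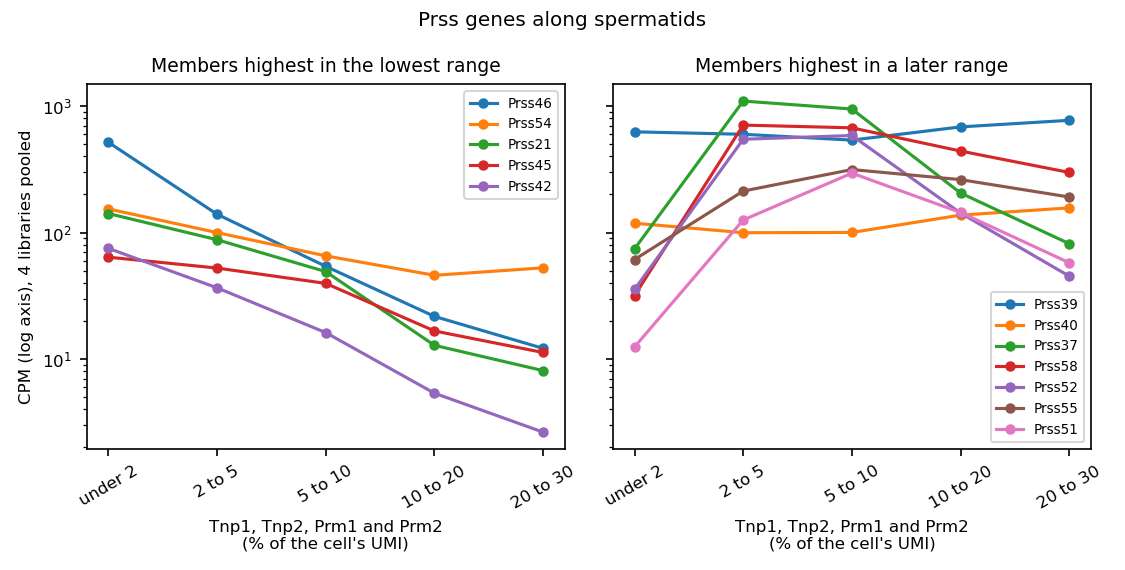
CPM (log axis, pooled libraries) of 12 members in spermatids of both classes, by the percent of the cell's UMI from Tnp1, Tnp2, Prm1 and Prm2. Left are members highest below 2%, such as Prss46 at 517 CPM. Right are members highest in a range above that, such as Prss37 at 1096 CPM, with Prss39 between 538 and 772 CPM.

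Neighbours on the chromosome did not always share a stage. On GRCm38, 29 members lay in 8 loci with gaps of at most 200 kb. At chr9:110798166-110864629 stood Prss42, Prss44, Prss43, Prss45, Prss46 and Prss50, in this order on the plus strand, and all 6 were germ cell members. The first 4 were highest in pachytene spermatocyte-like cells, Prss46 in round spermatid-like cells and Prss50 in early spermatocyte-like cells. Prss55, Prss51 and Prss52 lay at chr14:64075438-64113755 and were all spermatid members. On chromosome 17 a locus of 7 held Prss41 and Prss21, while its other 5 members had under 50 UMI. Across the 19 germ clusters, the closest pairs of members by Pearson's r of log2(CPM + 1) were Prss39 and Prss40 (0.97), Prss37 and Prss52 (0.96) and Prss42 and Prss43 (0.96), against a median of 0.06 over 210 pairs. The clusters share libraries and differ in depth, so these are descriptions. Among 10112 genes, those most like Prss39 were Prss40, Nme8, Trim54, 1700067K01Rik and Svip. Those most like Prss50 were Ssr4, H2-D1, Oat, Rpl39 and Rbp4, and those most like Prss37 were Gm28269, Trp53tg5, Prss52, Cst13 and Actrt3.

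The somatic members had few UMI in all, 297 for Prss35 and 292 for Prss23 in kept cells. Prss35, a protease-like protein known from the ovary, measured 102, 128, 79.0 and 127 CPM in interstitial mesenchymal-like cells and 57.0 CPM in Leydig-like cells, with 0 UMI in spermatogonia-like and early spermatocyte-like cells. Prss23 measured 67.7, 61.5, 75.4 and 38.4 CPM in interstitial mesenchymal-like cells and 280 CPM in the 44 endothelial-like cells (81 UMI). Prss23os overlaps exons of Prss23 on the other strand and was at 42.95 CPM in the round and 61.3 CPM in the elongating class, where Prss23 was at 1.79 and 0.306 CPM. No source used here says how the counting treated strand, so reads of this pair cannot be assigned with certainty. Prss53 shares exons with Gm21974, and 33.3% of its last 31-base words, so its 128 UMI are uncertain.

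The other 14 members had under 50 UMI. Prss1, Prss3, Prss28 and Prss29 had 0, for which the floor of 3 counts allows an expected count of up to 3 at this depth, and Prss2 had the most, 26. Prss1 and Prss3 are pancreatic trypsin genes whose 3' ends share 79.7% and 90.3% of 31-base words with other trypsin genes, so reads of either could have been lost or split. The remaining 9 were Prss8, Prss16, Prss22, Prss27, Prss30, Prss32, Prss33, Prss34 and Prss57, with 1 to 16 UMI.

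Lists of related genes were set beside the family. Of 13 acrosome genes, all were germ cell genes, against 61.8% of all genes by the same rule, 9 highest in round spermatid-like and 4 in pachytene spermatocyte-like cells, led by Spaca1 (998 CPM), Acrbp (912 CPM) and Spaca3 (873 CPM). In elongating over round spermatid-like cells all 13 were lower, with a median log2 ratio of -3.54, against 68.0% of all genes tested and their median of -1.78. Acrv1, Spaca1, Spaca3 and Izumo1 of this list were also markers used to name the round spermatid-like clusters. Their highest class and their lower level in elongating spermatid-like cells were thus in part set by the naming. Of 16 genes of ADAM3 maturation and sperm transport found, 14 were germ cell genes, led by Tex101 (4042 CPM), Calr (2744 CPM) and Ly6k (1916 CPM) in early spermatocyte-like cells. Adam3 was highest in round spermatid-like cells at 776 CPM. Of 4 other sperm serine proteases, 3 were germ cell genes: Acr, encoding acrosin, at 207 CPM in round spermatid-like cells, Pcsk4 at 85.0 CPM and Tmprss12 at 18.3 CPM. Of 15 serine protease inhibitors, 4 were germ cell genes, and the most abundant were Spink2, an acrosomal inhibitor, at 1872 CPM in pachytene spermatocyte-like cells, Spint2 at 770 CPM in early spermatocyte-like cells and Serpinb6a, which met neither rule, at 272 CPM.

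Libraries differed little for most members. In its highest class, the highest suffix over the lowest was 1.05 (Prss39) to 1.53 (Prss48) for 20 members, with a median of 1.20, and the median over all genes was 1.21 in pachytene spermatocyte-like and in elongating spermatid-like cells. The 5 largest ratios were those of Prss48, Prss21, Prss56, Prss43 and Prss42, each highest in suffix 2 and lowest in suffix 1. Phf7 was also low in suffix 4 and was highest in suffix 3. Suffix 4 was above suffix 3 for Prss48 (36.5 against 29.8 CPM), Prss43 (118 against 101.2 CPM) and Prss56 (158 against 156 CPM). It was below suffix 3 for Prss42 (191 against 199 CPM) and Prss21 (138 against 151 CPM). Any link of these members to Phf7 was not tested. Cluster 16 had 110, 210, 198 and 174 cells in suffixes 1 to 4, and its part in these differences was not tested.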

How the data were processed

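The deposited file holds raw UMI counts per gene and barcode, made by the authors with Cell Ranger 3.0.2 after bcl2fastq 2.19.1.403 on build mm10, per the submitters' processing notes; counts were used as deposited. Depth was 44447735 to 50353091 UMI per suffix. The members, marker lists and other lists were chosen with earlier results of these data known. A cell needed 500 genes or more and no more than 10% of UMI from mitochondrial genes. Scrublet (in scanpy 1.11.5) marked 1 of 29968 cells, so it did not work and doublets remain. Clusters came from 2000 variable genes without members and listed genes, 30 components, 15 neighbours and Leiden (leidenalg 0.10.2) at resolution 1. The scoring rule that names a class from the marker lists (mean z at least 0.5, lead at least 0.05, at least 3 markers in 5% of cells) was set after the clusters were seen. Counts were summed per class and suffix as CPM, with exact Poisson or binomial 95% intervals that cover counting error only. Ratio calls needed 2-fold, 1 direction in 4 suffixes and 50 UMI, with a floor of 3 counts for a class at 0; the step was tested on simulated counts. Members with at least 50 UMI are described by value, others by total; from each list the 3 highest are named; the 5 genes most like each of the 3 members with the highest germ CPM are named. Promoters were aligned with Biopython 1.88. The 13 motifs were all chosen with the data in view, and all 13 are reported. Positions are from GENCODE M21. No sample could be tied to a suffix, so no test between samples was run.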

Additional observations from a re-analysis of the deposited data

How the results depend on the processing

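No paired analysis was possible because no suffix could be tied to a sample. The number of germ cell members was 21 to 23 under every alternative run, and 16 to 22 of the 22 kept their highest class. With at least 1000 genes per cell a dividing spermatocyte-like class formed and took Prss39, Prss40, Prss42, Prss47 and Prss21, and no Sertoli-like class remained. At Leiden resolution 0.5 no early spermatocyte-like class was named, Prss50 no longer met the germ cell rule, and comparisons with that class gave no value. From spermatogonia-like to early spermatocyte-like cells, members that were lower (5) numbered 1 with 1000 genes, 2 with 20% mitochondrial UMI, 2 with members and listed genes in the clustering, 1 with the highest doublet scores removed, 0 at 4-fold and 2 to 5 leaving out 1 suffix. Members higher there (3) numbered 6 with a minimum of 20 UMI and 1 at 4-fold. Members lower in pachytene than in early spermatocyte-like cells (3) numbered 7, 9, 7 and 7 under the same first 4 alternatives and 2 to 6 leaving out 1 suffix; members higher there (11) numbered 7 at 4-fold. Members lower in round spermatid-like than in pachytene spermatocyte-like cells (8) numbered 5 by the mean over cells of CPM and 3 at 4-fold. Members higher in elongating than in round spermatid-like cells (1) numbered 0 at resolution 0.5, 0 with the highest doublet scores removed, 0 by the mean over cells, 0 at 4-fold, 4 with 1000 genes and 3 with a minimum of 20 UMI. Of 583 recomputed ratios of single members 4 changed sign. Prss50 had a log2 ratio of 1.28 for round over pachytene and -0.31 for elongating over round at resolution 0.5, and -1.21 for the latter with 1000 genes, where Prss52 had 0.13. The cause was not tested.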
